A study of Mus musculus with 18 samples.

Results

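The annexins examined here are the 8 genes Anxa1, Anxa2, Anxa3, Anxa4, Anxa5, Anxa6, Anxa7 and Anxa11, taken by symbol from a table of 51467 genes. They were put forward because Anxa3 was nearly absent from wild-type (WT) cells and present in the knockout, so the difference of Anxa3 between genotypes is described below without a test. The other 7 genes enter because they belong to the same family, and 6 of the 8 members had enough reads to be tested.

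The samples were mouse embryonic stem cells (ESCs) grown in medium with serum, LIF and the 2i inhibitors, either WT (the V6.5 line) or Dgcr8 knockout (KO). DGCR8 is needed to process primary microRNA transcripts, and Dgcr8 KO ESCs lack canonical microRNAs. Cells of both genotypes received 100 ug/ml cycloheximide for 2 minutes, which stalls ribosomes on messages, and their lysates were run on 10 to 50% sucrose gradients. From each of 6 gradients (3 WT, 3 KO), monosomes, low polysomes with 2 to 4 ribosomes per message and high polysomes with 4 or more were collected. The 3′ ends of polyadenylated RNA were sequenced from each fraction, which gave 18 libraries in 6 groups of 3. The KO was a single line generated earlier, and its parental line was not given in the sources used here, so the genotype and the line cannot be told apart. No source states that the 3 gradients of a genotype came from separate cultures, so p-values measure the spread between these gradients, which may be technical.

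Annexins are cytosolic proteins that bind phospholipid membranes when calcium rises. Each has a conserved core of annexin repeats that contacts the membrane and an N-terminal tail, different in every member, that binds partners such as S100 proteins and penta-EF-hand proteins. They are known for roles in linking membranes to actin, in vesicle traffic and in the repair of torn plasma membranes.

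Libraries held 1151649 to 4984833 counts, and the monosome libraries were the smallest. Levels are given as counts relative to the library total (CPM) after TMM scaling, which corrects library totals for a few abundant genes, and are followed by the SD over the 3 gradients of a group. Because reads come from 3′ ends, a count does not grow with transcript length. Differences were tested with limma, and a gene was called where the p adjusted over all 12851 genes tested was under 0.05 and the log2 change exceeded 1 in either direction. Dgcr8 itself kept 3′ reads in the KO, at 50.2 ± 2.58 CPM in monosomes against 74.8 ± 5.75 in WT and at 15.4 ± 7.17 CPM in high polysomes against 27.7 ± 1.76. The altered part of the gene was not given in the sources used here, and why these reads remained was not tested. The 8 pluripotent cell markers were abundant in both genotypes, with summed levels of 2795 to 2855 CPM in WT and 2826 to 2989 CPM in KO monosomes and of 3110 to 3197 and 2911 to 3153 CPM in low polysomes. In high polysomes the sums were lower in every KO library, at 3146 to 3659 CPM against 4587 to 5053 in WT. There 2 of the 8 markers were called lower, Dppa5a (438 against 1274 CPM) and Pou5f1 (25.5 against 67.1 CPM), beside 17.9% of all genes. Dppa5a has a coding sequence of 354 nt. Tested protein-coding genes with 75 to 522 nt had a median log2 difference of -1.13 in high polysomes. Pou5f1 has a coding sequence of 1056 nt, and genes with 951 to 1140 nt had a median of -0.18 (quartiles -0.74 and 0.45). The part of coding length in the calls of Dppa5a and Pou5f1 was not tested. The first KO low polysome library stood apart by its fibroblast markers, which summed to 33.5 CPM against 3.20 and 7.88 in the other KO low polysome libraries. Its primitive endoderm markers were also the highest of that group, at 19.1 CPM against 9.29 and 8.14. So were its mesoderm and neural markers, at 40.0 CPM against 28.2 and 19.2, but not its trophoblast markers (225 CPM against 190 and 243). These are bulk samples, in which fewer cells of a type and less RNA per cell cannot be told apart.

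Dgcr8 KO cells lack the microRNAs of the embryonic stem cell cell-cycle (ESCC) family, which share a seed, the bases that pair with a target. Mature sequences of 3 of them are shown with the seed in capitals (bases 2 to 8), and the annexin messages were searched for the match to bases 2 to 7.
mmu-miR-291a-3p: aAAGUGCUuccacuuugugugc
mmu-miR-294-3p: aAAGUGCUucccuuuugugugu
mmu-miR-302b-3p: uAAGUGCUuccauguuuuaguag
The letters GCACTT, the match to bases 2 to 7 of these seeds, were searched on the transcript strand of the 3′ UTRs of the members in GENCODE M21. No coding transcript of any of the 8 members held the match, while 31.1% of the 3′ UTRs of 11763 tested protein-coding genes did. The 3′ UTRs of the members are short, from 286 nt in Anxa1 to 1219 nt in Anxa7, and among 5508 tested genes with a 3′ UTR of 200 to 1300 nt the share was 17.9%. The only match among the annexin genes of the mouse with an annotated 3′ UTR was in Anxa9, which is no member (chromosome 3, minus strand, transcript ENSMUST00000107183.7). It lies at base 399 of a 3′ UTR of 694 nt.
Anxa9 3′ UTR, match in capitals: taccccagtactGCACTTaacagttac
Anxa9 had 0 to 11 reads per library in either genotype. A match is a description of letters and not a measured site. The microRNA sequences are from RefSeq (GRCm38.p6).

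Anxa3 (ENSMUSG00000029484, chromosome 5, 96793339 to 96845966, plus strand, GRCm38) encodes an annexin that is abundant in neutrophils. In WT cells it had 2, 0 and 0 reads in the 3 monosome libraries, 1, 3 and 4 in low polysomes and 2, 9 and 10 in high polysomes. In KO cells its monosome libraries had 68, 130 and 60 reads, its low polysome libraries 90, 101 and 94, and its high polysome libraries 135, 124 and 194. Every KO library was above every WT library in each fraction. The levels were 37.3 ± 13.5, 28.2 ± 3.87 and 42.6 ± 3.52 CPM in KO monosomes, low and high polysomes, and 0.446 ± 0.773, 0.798 ± 0.427 and 2.40 ± 1.41 CPM in WT. A count of 0 in the second and the third WT monosome library allows a level of up to 1.94 and 2.65 CPM (3 counts).

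With reads summed over the 3 libraries of a group, the KO to WT ratio of Anxa3 was 77.7 in monosomes (95% exact interval 21.3 to 645, from 258 and 2 reads). It was 34.1 in low polysomes (17.1 to 79.7) and 17.3 in high polysomes (11.2 to 28.2). These intervals overlap, cover counting error only and treat each read as a molecule, although no step on molecular identifiers is stated. The values chose the family and are given as a description. Without the first WT gradient, whose high polysome library had 2 reads, the fitted log2 difference in high polysomes was 3.66 in place of 4.21.

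**Figure D1:**
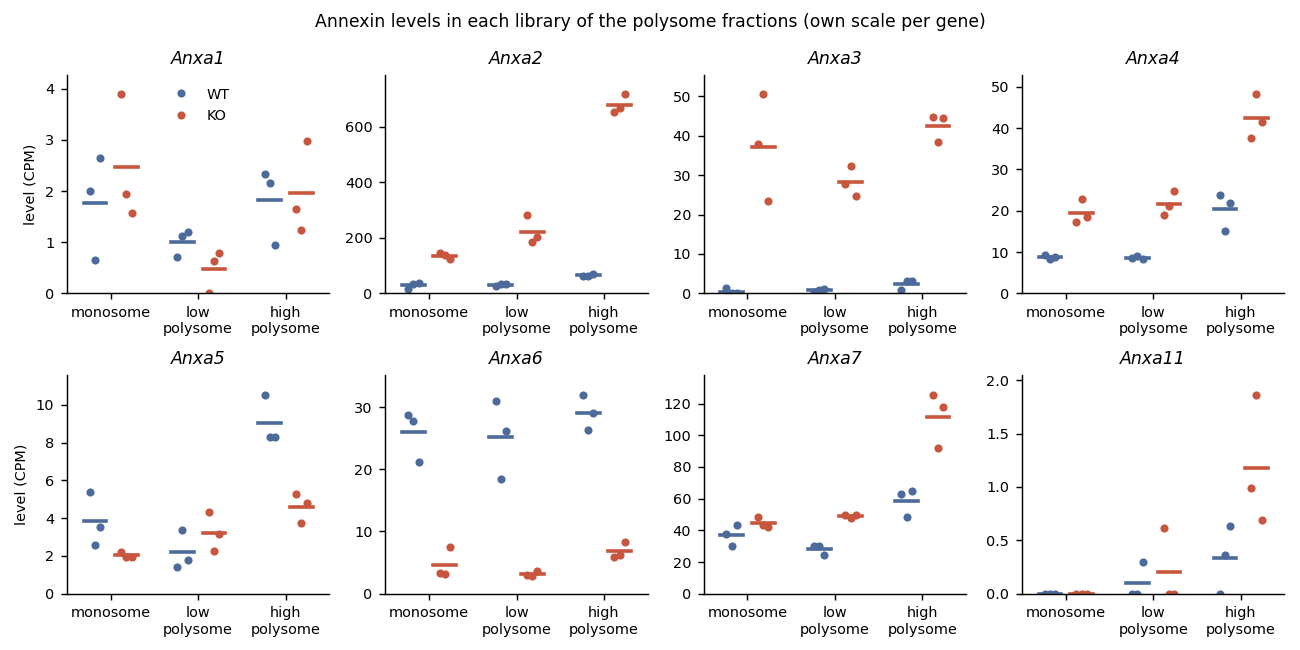
Level of each of the 8 annexins (CPM after TMM scaling, linear axis from 0, own scale per gene) in every library, with WT in blue, Dgcr8 KO in red and the group mean as a line. Anxa3 lies at 2.40 CPM or less on average in every WT fraction and at 28.2 to 42.6 CPM in KO cells, Anxa2 reaches 678 CPM in KO high polysomes, and Anxa6 is the member with lower KO than WT points in all 3 fractions.

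How the Anxa3 messages present in KO cells were spread over the gradient is a measure within 1 genotype that did not choose the gene. The high polysome to monosome ratio is called the translation level here, and for Anxa3 its log2 value was 0.24, -0.38 and 0.90 in the 3 KO gradients. The fitted value was 0.26 (SE 0.19, adjusted p = 0.23), within the spread between gradients. Without single gradients it ranged from -0.10 to 0.62, and its adjusted p over all alternatives from 0.015 to 0.95, and it was not called in any of them. The high to low polysome ratio of Anxa3 in KO cells was 0.61 (SE 0.19, adjusted p = 0.0057), under the fold threshold. In WT cells the fitted translation level of Anxa3, 1.89, rested on 2 monosome reads and is given without a test, because only 2 WT libraries reached the filter of 3 CPM and the low WT level put the family forward.

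The 5 tested protein-coding genes, annexins aside, whose log2 levels followed Anxa3 most closely over the 18 libraries were Tmem45a, Ninl, Ptgs1, Cdk6 and Pdk1. Their Pearson r to Anxa3 was 0.97, 0.97, 0.97, 0.96 and 0.96. Since these libraries share 2 genotypes and 6 gradients, the values describe a common pattern of high levels in all KO libraries and carry no test. Ptgs1, a cyclooxygenase, was the closest to Anxa3 in its WT level, at 0 to 0.120 CPM on average in WT fractions and 8.60 to 10.7 CPM in KO fractions. Cdk6, a cell-cycle kinase, was at 20.3 to 35.8 CPM in WT and 82.8 to 106 CPM in KO fractions. Among the annexins, r to Anxa3 was 0.88 for Anxa2, 0.80 for Anxa4, 0.60 for Anxa7, -0.12 for Anxa5 and -0.90 for Anxa6.

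Anxa2 was the most abundant annexin in every KO library and rose in KO cells in all 3 fractions, by the most in high polysomes. Anxa2 (ENSMUSG00000032231, chromosome 9, 69453620 to 69491795, plus strand) encodes a protein that joins S100A10 in a complex at the inner face of the plasma membrane, where it links actin and binds plasminogen at the cell surface. Its WT levels were 16.7, 34.2 and 38.9 CPM in monosomes, 26.1, 33.2 and 32.5 CPM in low polysomes and 64.4, 61.3 and 68.5 CPM in high polysomes. In KO cells they were 147, 137 and 124 CPM in monosomes, 281, 184 and 203 CPM in low polysomes and 652, 668 and 716 CPM in high polysomes. No KO library overlapped a WT library in any fraction. The highest of the 3 KO low polysome levels came from the library with the high fibroblast markers, and without that gradient the log2 difference in low polysomes was 2.65 and Anxa2 was still called. The log2 difference was 2.28 in monosomes (SE 0.22, adjusted p = 6.1e-11), 2.83 in low polysomes (SE 0.17, adjusted p = 1.9e-17) and 3.39 in high polysomes (SE 0.15, adjusted p = 9.5e-22). The last value is a 10.5-fold difference in reads summed over libraries (95% exact interval 9.65 to 11.5, counting error only).

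Anxa4 also rose in all 3 fractions, and by a similar amount in each. Anxa4 (ENSMUSG00000029994, chromosome 6, 86736840 to 86793584, minus strand) encodes an annexin of epithelial cells. It was at 8.39 to 9.38 CPM in WT and 17.2 to 22.9 CPM in KO monosomes, and at 8.43 to 8.93 and 19.1 to 24.7 CPM in low polysomes. In high polysomes the WT libraries held 23.8, 15.1 and 22 CPM and the KO libraries 37.7, 48.2 and 41.6 CPM. The ranges did not overlap in any fraction. The log2 differences were 1.10 (SE 0.32, adjusted p = 0.0051), 1.31 (SE 0.23, adjusted p = 6.4e-06) and 1.08 (SE 0.18, adjusted p = 1.4e-06) in monosomes, low and high polysomes. These lie near the fold threshold, and the call was lost without the second KO gradient in monosomes (0.98) and in high polysomes (0.99), and without the second WT gradient in high polysomes (0.91). With total counts as scaling the high polysome call of Anxa4 was also lost (0.85).

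Anxa7 was higher in KO low and high polysomes with small adjusted p-values, but by less than the fold threshold. Anxa7 (ENSMUSG00000021814, chromosome 14, 20455260 to 20480133, minus strand), also known as synexin, has a long N-terminal tail and binds sorcin. In monosomes WT libraries were at 37.5, 30.3 and 43.3 CPM and KO libraries at 48.4, 43.5 and 41.9 CPM, which overlap. In low polysomes they were at 24.4 to 30.4 and 48.1 to 49.8 CPM, and in high polysomes at 48.7 to 64.6 and 92 to 126 CPM, with no overlap in either. The log2 differences were 0.28 (SE 0.20, adjusted p = 0.26), 0.80 (SE 0.16, adjusted p = 6.5e-05) and 0.92 (SE 0.14, adjusted p = 3.5e-07). Anxa7 passed the fold threshold in high polysomes without the second KO gradient (1.05) or the third WT gradient (1.0).

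Anxa6 fell in KO cells in all 3 fractions. Anxa6 (ENSMUSG00000018340, chromosome 11, 54979108 to 55033445, minus strand) encodes the longest annexin, of 673 residues, in which the repeat core is present in duplicate, and it is known from late endosomes and cholesterol traffic. Its WT levels were 28.8, 27.7 and 21.2 CPM in monosomes, 31.0, 18.4 and 26.2 CPM in low polysomes and 32.0, 26.3 and 29.0 CPM in high polysomes. In KO cells they were 3.34, 3.11 and 7.44 CPM, 3.07, 2.88 and 3.68 CPM, and 5.95, 6.21 and 8.27 CPM. WT libraries were all above KO libraries in each fraction. The log2 differences were -2.53 (SE 0.37, adjusted p = 5.2e-07), -2.86 (SE 0.33, adjusted p = 1.8e-09) and -2.05 (SE 0.25, adjusted p = 4.1e-09).

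Anxa5 was scarce and was not called in any fraction between genotypes. Anxa5 (ENSMUSG00000027712, chromosome 3, 36448923 to 36475894, minus strand) encodes the phosphatidylserine-binding annexin used to stain dying cells. Its reads per library were 4 to 8 in WT and 4 to 5 in KO monosomes, 4 to 12 and 7 to 14 in low polysomes, and 23 to 27 and 12 to 21 in high polysomes. Its CPM ranges were apart in monosomes, at 2.58 to 5.36 in WT and 1.94 to 2.22 in KO, and in high polysomes, at 8.28 to 10.5 in WT and 3.73 to 5.29 in KO, and overlapped in low polysomes. The log2 differences were -0.85 (SE 0.54, adjusted p = 0.23), 0.54 (SE 0.44, adjusted p = 0.32) and -0.94 (SE 0.30, adjusted p = 0.0068). The high polysome value passed the fold threshold without the first KO gradient (-1.03) or the third WT gradient (-1.01), and with total counts as scaling (-1.17).

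Anxa1 and Anxa11 were below the filter of 3 CPM in at least 3 libraries and were not tested. Anxa1 (ENSMUSG00000024659, chromosome 19, 20373428 to 20390944, minus strand), a glucocorticoid-induced annexin whose peptides act on formyl peptide receptors, had 1 to 6 reads per WT library and 0 to 13 per KO library. Its summed high polysome reads were 15 in WT and 22 in KO, a ratio of 1.17 with an exact 95% interval of 0.582 to 2.43. Anxa11 (ENSMUSG00000021866, chromosome 14, 25842156 to 25886804, plus strand), which has a long disordered tail and binds PDCD6, had no read in the 6 monosome libraries. In high polysomes it had 0, 1 and 2 reads in WT and 3, 6 and 3 in KO libraries, and the ratio of 3.20 had an interval of 0.864 to 17.7. A difference of either gene was not detectable at this depth.

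Of the 5 tested members other than Anxa3, Anxa2 and Anxa4 were called higher and Anxa6 lower in each fraction. Over all genes tested, 8.43% were called higher and 9.63% lower in monosomes (18.1% in all), 11.4% and 13.6% in low polysomes (25.0%), and 15.1% and 17.9% in high polysomes (33.1%). The median log2 difference of these 5 genes was 0.28, 0.80 and 0.92 in monosomes, low and high polysomes, while the medians of all genes were -0.05, 0.00 and -0.08. The KO and WT ranges of Anxa2, Anxa4 and Anxa6 were apart in all 3 fractions, as were those of 49.2%, 57.0% and 63.6% of all genes in monosomes, low and high polysomes.

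**Figure D2:**
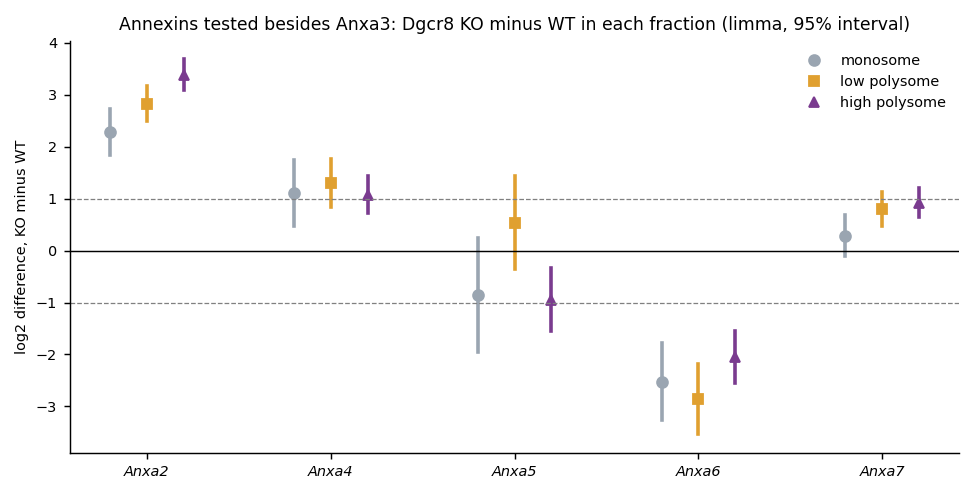
Log2 difference between Dgcr8 KO and WT for the 5 tested annexins besides Anxa3, in monosomes (circles), low polysomes (squares) and high polysomes (triangles), with 95% intervals from limma and dashed lines at the fold threshold. Anxa2 increases from 2.28 to 3.39 along the gradient, Anxa4 stays between 1.08 and 1.31, Anxa6 lies between -2.86 and -2.05, and the intervals of Anxa5 reach 0 in monosomes and low polysomes.

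Summed over the 12 annexin genes of the table, annexin reads took 103 to 121 CPM in WT and 221 to 264 CPM in KO monosomes. They took 97.8 to 102 and 295 to 388 CPM in low polysomes, and 170 to 201 and 861 to 938 CPM in high polysomes. Most of this sum was Anxa2 in KO cells, which took 54.8 ± 2.43% of annexin reads in monosomes, 66.6 ± 5.26% of those in low polysomes and 76.1 ± 1.5% in high polysomes, against 26.7 ± 9.06%, 30.5 ± 4.33% and 34.1 ± 2.06% in WT. In WT cells the annexin reads were shared mainly by Anxa2, Anxa7 and Anxa6. Anxa7 took 33.4 ± 4.58% in WT and 18 ± 1.35% in KO monosomes, although its level in CPM was not lower in the KO. Anxa6 took 23.7 ± 5.49% in WT and 1.94 ± 1.23% in KO monosomes, and Anxa3 took 0.433 ± 0.750% in WT and 14.7 ± 4.24% in KO monosomes. Because shares add to the whole, a larger share of Anxa2 lowers the others. Anxa8, which is no member, had 8, 15 and 32 summed reads in WT monosomes, low and high polysomes and 2, 5 and 6 in KO. It reached 3 CPM in 3 WT libraries and in 0 KO libraries, so its lower KO counts are given as a description.

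**Figure D3:**
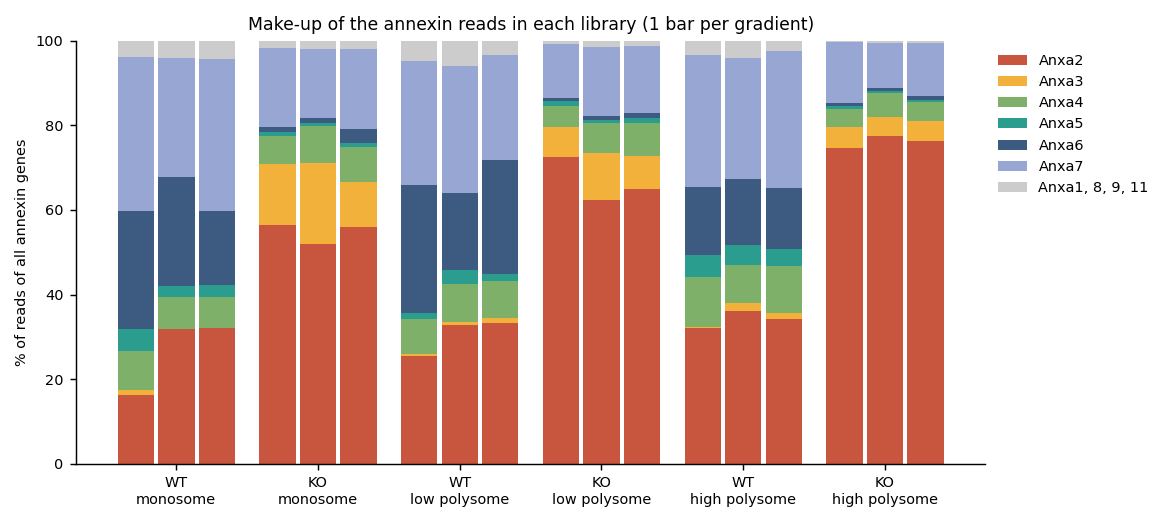
Share of each annexin in the reads of all annexin genes (percent, stacked from 0 to 100), with 1 bar per library grouped by fraction and genotype. The Anxa2 segment lies between 16.2 and 36.1% in WT libraries and between 52.0 and 77.5% in KO libraries, and the Anxa6 segment narrows from 14.4% or more to 3.36% or less.

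In WT cells Anxa2, Anxa4 and Anxa5 were higher in high polysomes than in monosomes, with translation levels of 1.22 (SE 0.23, adjusted p = 1.7e-05), 1.13 (SE 0.31, adjusted p = 0.0022) and 1.17 (SE 0.42, adjusted p = 0.018). These 3 of the 5 tested members besides Anxa3 were called toward high polysomes, where 10.7% of all genes were called higher and 19.3% lower (30.1% in all). Anxa7 had a WT translation level of 0.68 (SE 0.19, adjusted p = 0.0021), under the fold threshold, and Anxa6 one of 0.14 (SE 0.22, adjusted p = 0.63). The Anxa2 call was lost without the first WT gradient (0.83), and that of Anxa5 without any 1 of the WT gradients (adjusted p of 0.051 to 0.091).

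In KO cells 4 of the 5 tested members besides Anxa3 were called toward high polysomes, where 17.5% of all genes were called higher and 25.5% lower (43.0% in all). The translation level was 2.32 for Anxa2 (SE 0.14, adjusted p = 5.0e-18), 1.32 for Anxa7 (SE 0.15, adjusted p = 5.2e-10), 1.10 for Anxa4 (SE 0.19, adjusted p = 2.3e-06) and 1.08 for Anxa5 (SE 0.46, adjusted p = 0.035). Anxa6 was at 0.62 (SE 0.38, adjusted p = 0.16). The call of Anxa5 was lost without any 1 of the KO gradients (adjusted p of 0.067 to 0.14). With total counts as scaling, Anxa4 (0.85) and Anxa5 (0.83) were no longer called, nor was Anxa4 with the 10 CPM filter (0.99).

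Within polysomes, the high to low polysome ratio was called in WT for Anxa5 (2.00, SE 0.39, adjusted p = 3.9e-05), Anxa4 (1.20, SE 0.24, adjusted p = 4.5e-05), Anxa2 (1.08, SE 0.18, adjusted p = 3.1e-06) and Anxa7 (1.05, SE 0.16, adjusted p = 7.8e-07). Over all genes, 7.97% were called higher in this comparison and 15.6% lower (23.6% in all). In KO cells the ratio was called for Anxa2 (1.63, SE 0.13, adjusted p = 1.9e-13), Anxa7 (1.17, SE 0.14, adjusted p = 2.9e-09) and Anxa6 (1.06, SE 0.37, adjusted p = 0.015), where 9.43% of all genes were called higher and 16.4% lower (25.8% in all). Single gradients decided 3 of these calls, those of Anxa2 in WT (0.98 without the first WT gradient), Anxa7 in WT (0.87 without the third) and Anxa6 in KO (0.99 without the third KO gradient). With total counts as scaling the call of Anxa6 in KO was also lost (0.89).

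Whether the translation level itself differed between genotypes was asked with the interaction of genotype and fraction. Anxa2 was the member called, with a change of 1.11 (SE 0.27, adjusted p = 0.0014), where 15.1% of all genes were called in either direction and 6.29% higher. Its log2 high polysome to monosome ratio was 1.90, 0.83 and 0.80 in the 3 WT gradients and 2.15, 2.27 and 2.53 in the 3 KO gradients. The KO gradients were all above the WT gradients, and the first WT gradient, which had the lowest monosome level (16.7 CPM), lay nearest to them. How many of all genes have ratios apart in this way was not determined. The call of Anxa2 was lost without the second (0.86) or the third WT gradient (0.96) and without the third KO gradient (0.998, adjusted p = 0.011), and with total counts as scaling (0.78, adjusted p = 0.022). For Anxa2 the adjusted p over all alternatives was 3.2e-05 to 0.057. Total counts moved the median of all genes to -0.32 from 0.01 in this comparison, and the calls over all genes from 808 higher and 1132 lower to 282 and 2070.

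For Anxa7 the change in translation level was 0.64 (SE 0.24, adjusted p = 0.042), under the fold threshold. Its log2 ratios were 0.74, 0.67 and 0.57 in WT and 1.36, 1.07 and 1.47 in KO gradients, which do not overlap. The share of all genes with ratios apart in this way was not determined. Anxa4 changed by -0.03, with a 95% interval of -0.76 to 0.70, and its ratios overlapped between genotypes. For Anxa5 the value was -0.10 (interval -1.36 to 1.16) and for Anxa6 0.48 (interval -0.42 to 1.37). The median over the 5 members besides Anxa3 was 0.48 and that of all genes 0.01. The fitted change of Anxa3, -1.63, rests on 2 WT monosome reads and moved to -2.90 without the first WT gradient.

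**Figure D4:**
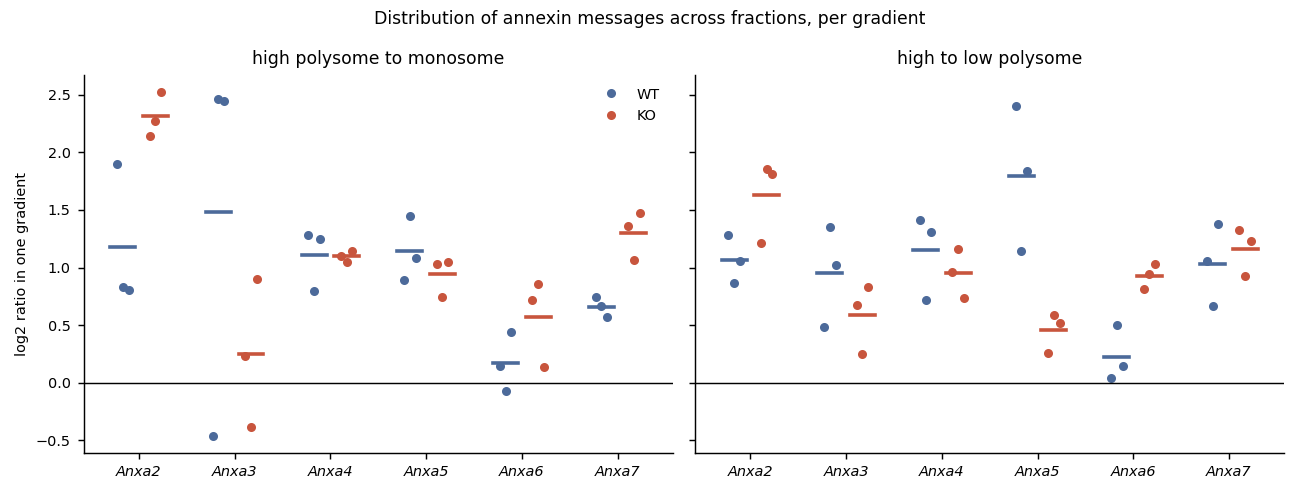
Log2 ratio of high polysomes to monosomes (left) and of high to low polysomes (right) in single gradients for the 6 tested annexins, with WT in blue, Dgcr8 KO in red and the mean of 3 gradients as a line. In the left panel the KO gradients of Anxa2 (2.15 to 2.53) and Anxa7 (1.07 to 1.47) lie above those of WT, and in the right panel the KO gradients of Anxa5 (0.26 to 0.59) lie below those of WT (1.15 to 2.40). The share of all genes with ratios apart was not determined for either panel.

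The KO and WT high to low polysome ratios were also compared, a comparison chosen after the data were seen, in which 5.18% of all genes were called, 2.89% lower and 2.29% higher. Anxa5 changed by -1.48 (SE 0.54, adjusted p = 0.049) and was the member called, and with the gradient as a replicate block the adjusted p was 0.13. The call was also lost with edgeR (adjusted p = 0.057) and without any 1 of the 6 gradients, and over all alternatives the adjusted p was 0.020 to 0.21. Anxa2 changed by 0.56 (SE 0.22, adjusted p = 0.080) and Anxa6 by 0.81 (SE 0.42, adjusted p = 0.19).

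In translation level, most tested annexin partners changed in the opposite direction to Anxa2. Of 12 partner and receptor genes, 7 were tested and 6 of these were called lower in translation level in the KO, where 8.81% of all genes were called lower. The median change of these 7 genes was -1.26. Between genotypes in single fractions there was no such common direction, since 3 of the 7 were called higher and 0 lower in KO monosomes. In low polysomes 1 of the 7 was called, which was lower, and in high polysomes 2 were called lower and 1 higher, beside 18.1%, 25.0% and 33.1% of all genes called in either direction. S100a10, the light chain of the Anxa2 complex, was at 83.0, 76.1 and 71.6 CPM in WT and 62.8, 43.5 and 55.2 CPM in KO monosomes, and at 100.2, 94.4 and 76.8 CPM in WT and 29.4, 24.9 and 23 CPM in KO high polysomes. S100a10 fell by 1.81 on the log2 scale in high polysomes (SE 0.16, adjusted p = 9.7e-13) and by 1.16 in low polysomes (adjusted p = 1.4e-09), while Anxa2 rose in both fractions. Its translation level changed by -1.26 (SE 0.23, adjusted p = 4.7e-05).

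Sri, the sorcin that binds Anxa7, was called higher in KO monosomes (1.03, adjusted p = 1.3e-04), a call lost without the first KO gradient or the second WT gradient (0.96 each), and lower in translation level (-1.37, SE 0.27, adjusted p = 1.1e-04). Pdcd6, the calcium sensor that binds Anxa11, changed by 0.25 in monosomes (adjusted p = 0.22), fell by 1.12 in high polysomes (adjusted p = 3.6e-09) and changed in translation level by -1.37 (SE 0.21, adjusted p = 2.6e-06). S100a11, which binds Anxa1, was called higher in KO monosomes (1.01, adjusted p = 8.6e-04) and differed by -0.11 in high polysomes (adjusted p = 0.60). The monosome call of S100a11 was lost without the third KO gradient (0.98) or the first WT gradient (0.91). It was also lost with the 10 CPM filter (0.99) and with the replicate number as a block (0.997). S100a11 changed in translation level by -1.13 (SE 0.30, adjusted p = 0.0035), a call lost without the first KO gradient (-0.97) or the first WT gradient (-0.94). S100a6 (-1.67) and Pef1 (-1.08), the other genes called lower in translation level, and Ahnak, the remaining gene tested, were named after their values were seen. S100a6 was called higher in KO monosomes (1.06, adjusted p = 2.3e-06) and differed by -0.60 in high polysomes (adjusted p = 0.0048), and its monosome call was lost without the first KO gradient (0.97) or the third WT gradient (0.91). Ahnak, a scaffold of the Anxa2 complex, was called higher in high polysomes (1.17, adjusted p = 2.7e-11) but not with total counts as scaling (0.95), and its translation level changed by 0.89 (SE 0.18, adjusted p = 1.5e-04). Of the 5 partner and receptor genes not tested, Fpr1, Fpr2 and Plg had no read in any library.

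The 6 partner genes called lower have short coding sequences, and the change in translation level moved with coding length over all genes. Among tested protein-coding genes the median change was -0.94 in the shortest decile (75 to 522 nt) and 0.62 in the longest decile (3414 nt or more). S100a10 (291 nt) and S100a11 (294 nt) fall in the shortest decile, whose quartiles were -1.40 and -0.47, so their values of -1.26 and -1.13 lie within the range of genes of their length. S100a6 (267 nt), Sri (549 nt), Pdcd6 (573 nt) and Pef1 (825 nt) lie below the lower quartile of theirs. Ahnak encodes a very large protein, and although its APPRIS principal transcript has a coding sequence of 450 nt, its longest has 16968 nt. At 0.89 Ahnak lies above the upper quartile of the shortest decile and within the quartiles of the longest (0.26 and 1.01). Anxa2 (1017 nt), Anxa4 and Anxa5 (957 nt each) fall in 1 decile, with a median of -0.15 and quartiles of -0.62 and 0.31. Anxa2, at 1.11, lies above this range, while Anxa4 and Anxa5 lie within it. Anxa7 (1389 nt), at 0.64, is just above the upper quartile of 0.57 of its decile, and Anxa6 (2019 nt) lies within the quartiles of its own. The part of coding length in these values was not tested.

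**Figure D5:**
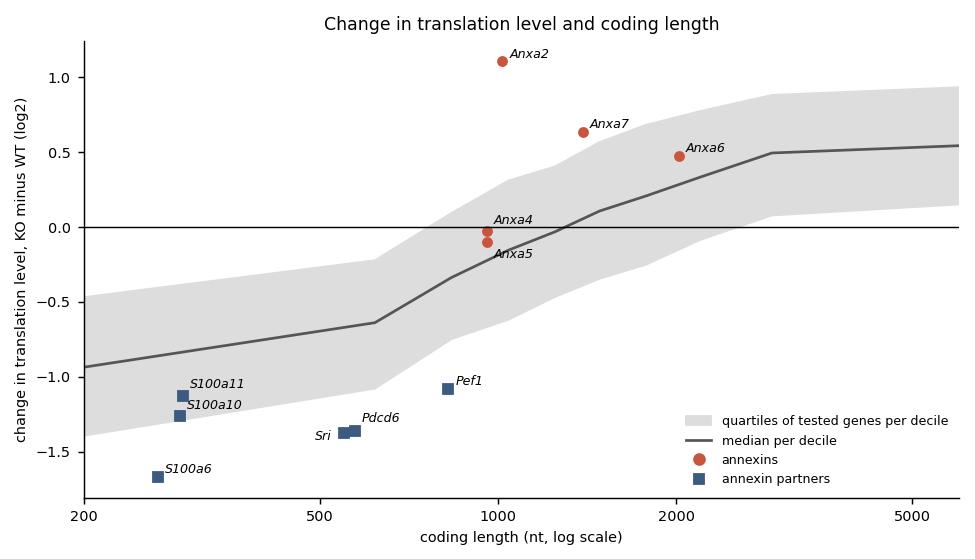
Change in translation level (KO minus WT, log2) against coding length (nt, log axis) for annexins tested besides Anxa3 (red circles) and their partners (blue squares), over the median (line) and quartiles (grey) of tested protein-coding genes in deciles of coding length. Anxa2 lies above the grey band at 1.11 and Anxa4 and Anxa5 inside it, and 4 of the 6 partners drawn lie below the band (Ahnak, represented by a transcript with a short coding sequence, is left out).

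Of 15 plasma membrane repair genes, 13 were tested, and 1 was called higher and 1 lower in KO monosomes, while 2 were called higher and 1 lower in either polysome fraction. These counts are 2 of 13 genes in monosomes and 3 of 13 in either polysome fraction, beside 18.1%, 25.0% and 33.1% called over all genes. With 13 genes they are not read as different from those shares. Over the 13 genes the median log2 difference was 0.37 (monosomes), 0.10 (low polysomes) and 0.19 (high polysomes). Smpd1, the lysosomal acid sphingomyelinase, differed by 1.11 in monosomes (SE 0.27, adjusted p = 9.9e-04) and by 1.0 in low polysomes (SE 0.17, adjusted p = 2.7e-06). The low polysome value lies at the fold threshold, and its call was lost without the third KO or the third WT gradient (0.87 each), with the 10 CPM filter (0.95), with DESeq2, its size factors or total counts (0.97 each) and with only the libraries compared (0.999). Ehd2, a membrane-shaping ATPase of caveolae, is among the genes counted as higher in both polysome fractions, but it reached 3 CPM in 3 KO libraries and in 0 WT libraries, so it entered the test only through the KO. It had 0 to 2 reads per WT library and 3 to 20 per KO library, which is given as a description. Dysf, counted as lower in low polysomes, likewise entered only through 3 WT libraries.

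Markers of other cell types were read in the same libraries. The 8 primitive endoderm markers summed to 15.0 to 18.8 CPM in WT and 3.53 to 7.78 CPM in KO monosomes, 26.8 to 27.7 and 8.14 to 19.1 CPM in low polysomes, and 22.6 to 39.3 and 12.4 to 15.9 CPM in high polysomes. Lama1 made up most of this sum, with a mean of 20.5 CPM in WT and 7.51 CPM in KO high polysomes. In the same fraction Dab2 was at 3.06 and 0.394 CPM and Pdgfra at 1.55 and 3.16 CPM, Sox17 had 19 reads in all in WT and 2 in KO libraries, and Gata6 and Sox7 reached at most 0.922 and 0.884 CPM in any library. Fibroblast markers summed to 8.92 to 15.5 CPM in WT libraries and to 3.20 to 8.62 CPM in KO libraries except the first KO low polysome library (33.5 CPM). In that library Acta2 had 37 reads, Col3a1 28, Col1a1 16 and Col1a2 13, against 1 and 6, 0 and 0, 1 and 1, and 0 and 0 in the other two KO low polysome libraries. Mesoderm and neural markers summed to 40.2 to 72.3 CPM in WT and 19.2 to 40.0 CPM in KO libraries, and trophoblast markers to 153 to 245 and 186 to 243 CPM. The first KO low polysome library also set the upper KO ends of 19.1 CPM for primitive endoderm and 40.0 CPM for mesoderm and neural markers.

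Of the primitive endoderm genes 3 of 8 were tested, and in monosomes, low and high polysomes 0, 0 and 1 were called higher and 1, 2 and 2 lower in the KO. Of the 3 tested mesoderm and neural genes 0, 1 and 1 were called higher and 2, 1 and 1 lower, and of the 2 tested fibroblast genes 0 were called higher and 1 lower in each fraction. Of the 4 tested trophoblast genes 1 was called higher, in low polysomes, and 0 lower in any fraction. Over all genes 18.1%, 25.0% and 33.1% were called in these fractions. Dab2, Pdgfra, Col1a1, Thy1 and Kdr reached 3 CPM in 3 or more libraries of 1 genotype only, so any call of theirs is a description. The part of these cell types in the annexin differences was not tested.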

How the data were processed

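Polysome fractions of WT and Dgcr8 KO mouse ESCs (18 libraries, QuantSeq 3′ FWD) were analysed. The authors deposited raw counts of reads per gene, after trimming with cutadapt 1.14, unique alignment to mm10 with STAR 2.5.3a and strand-specific counting with featureCounts 1.5.3. Reads that map to several places were not counted, which lowers genes with near-identical copies. Symbols and transcripts came from GENCODE M21 (GRCm38), which held 51274 of the 51467 genes, and the transcript used per gene was the APPRIS principal one or else that with the longest coding sequence. The 92 spike-in entries (0.00052 to 0.00215% of reads) were left out.

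Genes with 3 CPM or more in 3 libraries (12851) were tested with limma-voom (limma 3.58.1, edgeR 4.0.16 for TMM scaling, R 4.3.3), with a mean per group, no block and two-sided Benjamini-Hochberg adjusted p-values. limma, the interaction term and the filter follow the study's methods, and voom and TMM were chosen here. Ratios per gradient used a prior count of 2. The fits were tested on simulated data. Comparisons share libraries and are not independent.

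The members, gene lists and comparisons were chosen with earlier results of these data known. The 8 annexins, Dgcr8, S100a10, S100a11, Pdcd6 and Sri were always named, other partner and repair genes where called in the same direction in 2 fractions (Smpd1, Ehd2), and the 5 genes closest to Anxa3 by r. S100a6, Pef1, Ahnak, Dysf and single markers were named after their values were seen. Protein sequences were not used here. Alternatives were edgeR, DESeq2 1.42.0, other scalings and filters, no fold threshold, fewer libraries, single gradients left out and a replicate block. The block was the gradient for ratios of fractions and their changes, and the replicate number for KO versus WT within a fraction. Equal numbers within a genotype mark 1 gradient by the labels, and deviations from group means correlated at 0.03 to 0.14 in these 18 pairs. No label pairs a WT with a KO gradient, and for equal numbers across genotypes the correlation was 0.0002 to 0.10 in 9 pairs. No replicate pair within a group agreed within sampling noise (chi-square per gene 1.85 or more).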

Additional observations from a re-analysis of the deposited data

Results flagged for a closer look

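The interaction of genotype and fraction was past its threshold for Anxa2, whose translation level changed by 1.11 between genotypes, and for 6 annexin partner genes in the opposite direction, S100a6 (-1.67), S100a10 (-1.26), S100a11 (-1.13), Pdcd6 (-1.37), Pef1 (-1.08) and Sri (-1.37). For Anxa2 this combines a larger KO to WT difference in high polysomes (3.39) than in monosomes (2.28), with the KO higher in both. The 6 partner genes were among 7 tested, and over all genes 6.29% were called higher and 8.81% lower. S100a10 and S100a11 lie within the quartiles of genes of their coding length (-1.40 and -0.47), and the other partners called lie below those of theirs. Dgcr8 KO and WT gradients of Anxa2 did not overlap in this ratio, and the share of all genes with ratios apart was not determined. The call of Anxa2 was lost without the second or the third WT gradient, without the third KO gradient and with total counts as scaling. That of S100a11 was lost without the first KO or the first WT gradient. Groups of 3 libraries were not screened for single outlying libraries.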

How the results depend on the processing

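Of 2262 values compared under alternatives, 2111 were counted as unchanged, 79 lost the call, 70 gained it, 2 moved and 0 reversed. The setting with no fold threshold keeps the main fit and can only add calls. It gave 41 of the 70 gains and 0 of the losses. The unchanged values include some that were not called and changed sign, such as the translation level of Anxa3 in KO (-0.10 to 0.62). They also include numbers of members that moved by little, such as 3 to 4 for the translation level in KO without single gradients. The number of members called for the change in translation level (1) was 2 with no fold threshold, 0 with total counts, and 0 to 1 without single gradients. For the high to low polysome ratio in KO (3), it was 5 with every gene with a count, a setting that also admits the scarce Anxa1 and Anxa11. It was 5 with no fold threshold, where Anxa3 (0.61) and Anxa4 (0.96) were added. For KO versus WT in high polysomes (3), it was 5 with no fold threshold and 2 to 5 without single gradients, and for the translation level in KO (4), it was 2 with the 10 CPM filter and 2 with total counts. With the replicate block the change in the high to low polysome ratio of Anxa5 was -1.5, no longer called, and no other call of a member changed. The gradient as block also ended the call of Ehd2 for the high to low polysome ratio in KO (1.35). With the replicate number as block, the calls of Dgcr8 in high polysomes (-0.98) and S100a11 in monosomes (0.997) ended. Total counts moved calls over all genes from 1946 higher and 2303 lower to 1426 and 3114 in high polysomes, from 2243 and 3277 to 1551 and 3932 for the translation level in KO, and from 1212 and 2107 to 715 and 2739 for the high to low polysome ratio in KO. Annexins with few reads, which are Anxa11, Anxa1, Anxa3 in WT cells and Anxa5, are limited by depth.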
